A study of Mus musculus with 2 samples.

Results

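The 26S proteasome degrades proteins that carry ubiquitin chains. Its barrel-shaped core particle stacks rings of alpha subunits, encoded by *Psma* genes and forming the gate, on rings of beta subunits, encoded by *Psmb* genes and holding the proteolytic sites, and its regulatory particle, encoded by *Psmc* and *Psmd* genes, binds the ubiquitin chain, removes it and unfolds the substrate. Interferon replaces the catalytic subunits Psmb5, Psmb6 and Psmb7 by the immune subunits Psmb8, Psmb9 and Psmb10, which alter the peptides handed to MHC class I molecules. Embryonic stem (ES) cells are known for little MHC class I on their surface.

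The genes described here are the 39 mouse genes whose symbol is *Psma*, *Psmb*, *Psmc* or *Psmd* followed by a number, pseudogenes left out, among 54146 genes in the count tables. Of these, 19 encode the core particle and 20 the regulatory particle or the chaperones of its assembly. They were measured by inDrop, a droplet method that counts the 3′ ends of single transcripts by unique molecular identifiers (UMIs), in 2 libraries of mouse ES cells grown on gelatin with mouse embryonic fibroblast feeders in LIF and 2i medium. The wild-type library came from 1 clone that was transfected but not edited, and the knockout library from 1 clone in which *Lin28a*, an RNA-binding protein gene of the stem cell state, had been targeted with CRISPR/Cas9. The protocols name E14 cells as the parent unless V6.5 is stated, and the study describes these 2 clones among its E14 lines. With 1 library of 1 clone in each group there was no replicate, so no difference between the libraries was tested and each value compares 2 libraries rather than 2 genotypes. Intervals given in parentheses are exact 95% intervals that cover counting error only. Levels are the UMIs of a gene scaled to 1000000 UMIs of the same cells (CPM) and are not divided by transcript length, since each transcript gives 1 end.

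Cells were barcodes with at least 500 UMIs and at most 20% of UMIs on mitochondrial genes, which left 1856 cells and 11639256 UMIs in the wild-type library and 1622 cells and 9340855 UMIs in the knockout library. Ribosomal protein (RP) genes took 10.8% and 11.7% of the UMIs, and mitochondrial genes 1.36% and 1.85%. *Lin28a* was at 107 CPM in the wild-type library and 36.6 CPM in the knockout library, giving a ratio of 0.343 (0.304 to 0.387). Cells with at least 0.5% of their UMIs on *Col1a1*, *Col1a2* and *Col3a1* are called collagen-high, with 41 wild-type and 21 knockout cells in all. The other cells carried ES markers, with *Pou5f1*, *Sox2*, *Nanog* and the rest of a list of 10 summing to 4948 and 5077 CPM, against 978 and 957 CPM in the collagen-high cells. Of this list *Klf4* lay the other way in the wild-type library, at 718 CPM in collagen-high and 582 CPM in other cells.

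Reference sequence for the genes on which the results turn comes from RefSeq (GRCm38.p6), as 300 bases from 250 before to 50 after an annotated start. The first group shown is the immune subunits, the members set against fibroblast content. On both strands, 4 motifs were searched, namely TGACNNNGC (the core of the antioxidant response element), GAAANNGAA (the core of an interferon response element), TTCNNNGAA (the core of the interferon gamma activated site) and CCAAT. The *Psmb8* sequence lies at chr17:34197945-34198244 on the plus strand, with its only match to TTCNNNGAA in capitals. The *Psmb9* sequence lies at chr17:34187281-34187580 on the minus strand, with CCAAT on the opposite strand in capitals. The *Psmb10* sequence lies at chr8:105938343-105938642 on the minus strand and held none of the 4 motifs, which says only that these letters are not in this window.
Psmb8: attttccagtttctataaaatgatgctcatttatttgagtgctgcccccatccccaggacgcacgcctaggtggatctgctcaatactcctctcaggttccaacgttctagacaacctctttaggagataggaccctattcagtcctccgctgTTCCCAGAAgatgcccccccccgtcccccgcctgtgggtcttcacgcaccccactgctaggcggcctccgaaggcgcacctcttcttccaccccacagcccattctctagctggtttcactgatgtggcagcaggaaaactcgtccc
Psmb9: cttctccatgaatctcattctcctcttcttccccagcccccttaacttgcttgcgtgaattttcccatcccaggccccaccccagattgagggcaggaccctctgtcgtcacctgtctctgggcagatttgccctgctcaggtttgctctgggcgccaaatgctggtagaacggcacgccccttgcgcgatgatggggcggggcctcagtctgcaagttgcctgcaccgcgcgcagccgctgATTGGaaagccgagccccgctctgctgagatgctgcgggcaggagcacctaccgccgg
Psmb10: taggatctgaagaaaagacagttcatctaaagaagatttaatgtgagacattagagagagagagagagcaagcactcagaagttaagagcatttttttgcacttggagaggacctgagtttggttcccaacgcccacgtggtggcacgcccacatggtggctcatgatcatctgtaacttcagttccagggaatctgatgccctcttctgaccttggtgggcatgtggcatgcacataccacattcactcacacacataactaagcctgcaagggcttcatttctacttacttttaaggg

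The second group is the 5 members with TGACNNNGC in the window, shown because the motif is the core of the element bound by the factors Nfe2l1 and Nfe2l2, and because these 5 genes lay on both sides of 1 in the comparison of the libraries. The 60-base stretches around the match, with the match or its reverse complement in capitals, lie at chr14:54618008-54618067 on the minus strand for *Psmb5*, chr11:70525323-70525382 on the plus strand for *Psmb6*, chr5:123228134-123228193 on the plus strand for *Psmd9*, chr14:45329574-45329633 on the plus strand for *Psmc6* and chr11:107479278-107479337 on the plus strand for *Psmd12*.
Psmb5: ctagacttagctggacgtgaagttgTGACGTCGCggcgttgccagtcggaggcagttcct
Psmb6: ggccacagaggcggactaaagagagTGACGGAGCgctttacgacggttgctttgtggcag
Psmd9: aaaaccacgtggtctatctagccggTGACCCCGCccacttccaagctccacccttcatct
Psmc6: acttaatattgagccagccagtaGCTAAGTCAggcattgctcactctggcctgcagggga
Psmd12: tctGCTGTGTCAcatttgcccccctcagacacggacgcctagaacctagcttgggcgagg

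Of the 39 members, 32 had an entry in the promoter table, with 34 entries in all. TGACNNNGC was in 5 of the 34 (14.7%) against 12.4% of all 32851 promoters of the same length. GAAANNGAA was in 5 (14.7%) against 8.56%, and these were the promoters of *Psmb3*, *Psmb4*, *Psmc2*, *Psmd4* and *Psmd9*, with none of an immune subunit. The *Psmb8* and *Psmb9* windows shown lie inside the annotated genes, which begin at chr17:34197721 and, on the minus strand, chr17:34187764. Sequence before those gene starts was not in the windows shown, so the lack of a match covers the windows only. TTCNNNGAA was in 2 (5.88%), those of *Psmb8* and *Psmd2*, against 8.30%, and CCAAT in 13 (38.2%) against 37.4%. The shares of TGACNNNGC, TTCNNNGAA and CCAAT were thus close to those of all promoters. A match is a description of the letters and not a binding site.

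Together the 39 genes took 63464 UMIs in the wild-type library and 49546 UMIs in the knockout library, or 5453 and 5304 CPM. Levels of single genes spanned a wide range. The most abundant was *Psmb4*, a non-catalytic beta subunit (ENSMUSG00000005779.12, GRCm38 chr3:94884093-94886961, minus strand), at 364 CPM in the wild-type library and 342 CPM in the knockout library. *Psmb3*, at 291 and 303 CPM, was second in the beta ring by its wild-type level, and *Psma3* (305 and 238 CPM) and *Psma2* (262 and 229 CPM) led the alpha ring. In the base of the regulatory particle, the scaffold subunit genes *Psmd1* (269 and 237 CPM) and *Psmd2* (257 and 255 CPM) exceeded all 6 ATPase genes *Psmc1* to *Psmc6*, among which *Psmc2* (105 and 101 CPM) and *Psmc3* (109.9 and 113 CPM) were lowest in the wild-type library. In the lid, *Psmd11* (233 and 246 CPM) and *Psmd7* (216 and 226 CPM) were highest, whereas *Psmd14*, the enzyme that removes the ubiquitin chain, was lowest at 55.9 and 46.8 CPM. The chaperones of base assembly *Psmd5*, *Psmd9* and *Psmd10*, which leave before the particle is complete, lay between 24.6 and 35.4 CPM in both libraries.

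The low end of the list was held by the subunits of specialised proteasomes. *Psma8*, the alpha subunit of the testis proteasome, had 74 and 53 UMIs (6.36 and 5.67 CPM). *Psmb9* had 18 wild-type and 10 knockout UMIs, at 1.55 CPM (0.917 to 2.44) and 1.07 CPM (0.513 to 1.97). *Psmb8* (ENSMUSG00000024338.14, GRCm38 chr17:34197721-34201454, plus strand) had 16 and 14 UMIs, at 1.37 CPM (0.786 to 2.23) and 1.499 CPM (0.819 to 2.51). These 3 genes fell under the 200 UMIs that a gene needed over both libraries to be counted below, which left 36 members among 9835 such genes. *Psmb10*, the third immune subunit, stood far above the other immune subunits, with 310 and 253 UMIs at 26.6 and 27.1 CPM. *Psmb11*, the beta subunit of thymic epithelium, had 193 and 103 UMIs (16.6 and 11.03 CPM). The 3′ end of its longest annotated transcript matched transcripts of 21 other genes at 95% identity or more. Its UMIs therefore could not be assigned to it with certainty.

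**Figure D1:**
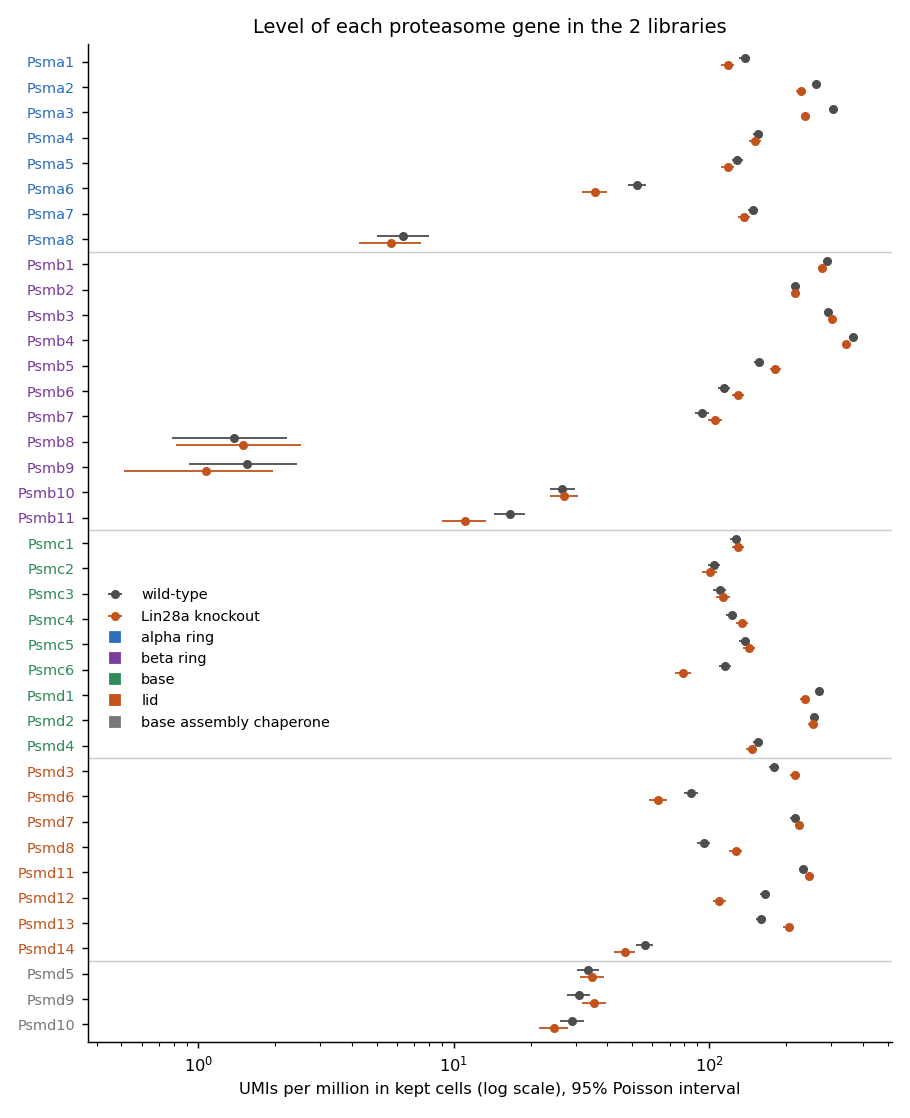
Level of each of the 39 proteasome genes in CPM, that is UMIs scaled to 1000000 (log axis), in the wild-type (grey) and *Lin28a* knockout (orange) library, with 95% Poisson intervals, ordered by ring and particle. Each point is 1 library. *Psmb4* is highest and *Psmb8* and *Psmb9* lie lowest, with wide intervals that overlap between the libraries.

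Near-identical copies were a further limit on some levels. For 8 members the last 500 bases of the longest annotated transcript matched another gene at 95% identity or more over at least 100 bases. The pseudogenes of *Psma5* held 486 and 470 UMIs, or 32.4% and 42.5% of the UMIs of *Psma5* itself, and those of *Psmb5* held 483 and 564 UMIs, or 26.4% and 33.2%. With the copies added, the knockout over wild-type ratio went from 0.919 to 0.989 (0.925 to 1.06) for *Psma5* and from 1.16 to 1.22 (1.15 to 1.29) for *Psmb5*. The 21 genes that match *Psmb11* held 7637 and 5845 UMIs against its own 193 and 103, so adding them would give their ratio and not its own, and it was left as counted. The other 31 members had no such copy by this search. Ends of shorter transcripts of the same genes were not searched, so copies of those ends could have been missed.

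Between the libraries the summed proteasome level differed little. The knockout over wild-type ratio was 0.973 (0.961 to 0.984) for all 39 genes, 0.949 (0.934 to 0.965) for the core particle at 2771 and 2630 CPM, and 0.997 (0.981 to 1.01) for the regulatory particle at 2682 and 2674 CPM. Beneath these sums the rings differed. The alpha ring was at 1197 CPM in the wild-type library and 1034 CPM in the knockout library, giving a ratio of 0.864 (0.841 to 0.886). The beta ring was at 1574 and 1597 CPM, a ratio of 1.01 (0.993 to 1.04) that became 0.980 under median of ratios scaling, which sets the libraries equal at the median gene instead of the total. The base was at 1398 and 1339 CPM, a ratio of 0.957 (0.935 to 0.980). The lid was at 1189.9 and 1240.5 CPM, a ratio of 1.04 (1.02 to 1.07), or 1.01 under median of ratios scaling. The chaperones were at 93.6 and 94.96 CPM, with an interval that spanned 1. Without the collagen-high cells the ratio of all members was 0.965. Within bins of cells these sums did not all stay below 1. The core ratio was 0.989 (0.966 to 1.01) in cells of 5000 to 10000 UMIs and 0.900 in deeper cells. By mitochondrial share it was 0.985 (0.959 to 1.01) under 1%, 1.02 (0.993 to 1.05) at 1 to 2% and 0.932 at 2 to 5%. It was 0.909 to 0.924 in RP bins of 5% or more. All members were at 1.03 (1.01 to 1.05) at 1 to 2% mitochondrial UMIs, but 0.943 to 0.960 in those RP bins. They were at 0.957 at 2 to 5% mitochondrial UMIs and 0.953 in deeper cells. In cells under 5% RP UMIs all members were at 1.26 (1.11 to 1.44) and the core at 1.26 (1.02 to 1.55). At 5 to 20% mitochondrial UMIs they were at 1.22 (1.02 to 1.46) and 1.38 (1.04 to 1.86). All members held 292 and 1233 UMIs in the former cells and 144 and 1109 in the latter. In the shallowest bin of depth all members were at 1.09 (1.01 to 1.18), and the interval of the core spanned 1.

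In the alpha ring all 7 genes counted had knockout over wild-type ratios under 1, from 0.684 to 0.975 and an interval below 1 for 6 of them, where 4699 of all 9835 genes counted had a ratio under 1 and 2872 an interval below 1. *Psma5* is among the 6, but its interval spanned 1 with its copies added. *Psma6* (ENSMUSG00000021024.14, GRCm38 chr12:55384222-55418454, plus strand) had 607 UMIs at 52.2 CPM in the wild-type library and 333 UMIs at 35.6 CPM in the knockout library, the lowest ratio of the ring at 0.684 (0.596 to 0.783). *Psma3*, the most abundant of the ring, had 3552 and 2226 UMIs, a ratio of 0.781 (0.740 to 0.824). *Psma4* was nearest to 1, at 155 and 151 CPM, and its interval spanned 1. In the bins of depth, RP share and mitochondrial share examined, the alpha ring stayed below 1, with ratios of 0.859 in cells of 5000 to 10000 UMIs and 0.782 to 0.889 in RP bins of 5% or more. Its ratio was 0.808 in cells under 1% mitochondrial UMIs and 0.964 (0.924 to 1.005) in cells with 1 to 2%, where the interval reached past 1. Relative to genes of like GC content in the longest annotated transcript, the ratios of the ring no longer lay on 1 side. *Psma2* was then at 1.08 (1.03 to 1.15) and *Psma4* at 1.11 (1.03 to 1.19), the intervals of *Psma1* and *Psma3* spanned 1, and *Psma5*, *Psma6* and *Psma7* kept an interval below 1, without the copies of *Psma5* added.

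The catalytic subunits of the beta ring lay the other way. *Psmb5*, with chymotrypsin-like activity, was at 157 CPM in the wild-type library and 182 CPM in the knockout library (1.16, 1.08 to 1.24). *Psmb6*, with caspase-like activity, had 1328 and 1214 UMIs, a ratio of CPM of 1.14 (1.05 to 1.23). *Psmb7*, with trypsin-like activity, was at 93.8 and 105 CPM (1.12, 1.03 to 1.22). Summed, they were at 365 and 417 CPM, a ratio of 1.14 (1.09 to 1.19), and 1.10 under median of ratios scaling. Relative to genes of like GC, *Psmb5* was at 0.993 (0.929 to 1.06) and *Psmb6* at 1.05 (0.973 to 1.14), with intervals that spanned 1, and *Psmb7* at 1.39 (1.28 to 1.52). The sum was nearer to 1 within RP bins, at 1.03 (0.955 to 1.12), 1.06 (0.982 to 1.14) and 1.07 (0.988 to 1.16) in cells of 5 to 10%, 10 to 15% and 15% or more, where each interval spanned 1. In the other bins examined it was larger than over all cells, at 1.23 (1.15 to 1.31) in cells of 5000 to 10000 UMIs, 1.197 (1.11 to 1.29) in cells with 1 to 2% mitochondrial UMIs and 1.26 (1.18 to 1.35) in cells under 1%. The sum was not taken in the remaining bins of depth and mitochondrial share. The knockout library held 355 cells with 15% or more of UMIs on RP genes and the wild-type library 226. Of the non-catalytic beta genes, *Psmb4* was lower at 0.939 (0.896 to 0.983), and *Psmb3*, at 1.04 (0.989 to 1.09), was not distinguishable from 1 by counting error.

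The regulatory particle, near 1 as a sum, held the genes that differed most in either direction. *Psmd8*, a lid subunit (ENSMUSG00000030591.17, GRCm38 chr7:29174188-29180701, minus strand), had 1111 UMIs at 95.5 CPM in the wild-type library and 1187 UMIs at 127 CPM in the knockout library, the highest ratio of the 36 members at 1.33 (1.23 to 1.45). *Psmd13*, also of the lid, was at 159.9 and 205 CPM (1.28, 1.1998 to 1.36), and *Psmd3* at 179.7 and 217 CPM (1.21, 1.14 to 1.28). In the opposite direction, the lid subunit *Psmd12* (ENSMUSG00000020720.13, GRCm38 chr11:107479484-107504362, plus strand) had 1923 UMIs at 165 CPM in the wild-type library and 1025 UMIs at 109.7 CPM in the knockout library, the lowest ratio at 0.664 (0.615 to 0.717). *Psmd6* was at 85.1 and 63.2 CPM (0.743, 0.669 to 0.823).

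Of the base, the ATPase gene *Psmc6* stood apart. It had 1346 UMIs at 116 CPM in the wild-type library and 738 UMIs at 79.0 CPM in the knockout library, giving a ratio of 0.683 (0.624 to 0.748). The other 5 ATPase genes had ratios from 0.961 for *Psmc2* to 1.10 for *Psmc4*. *Psmd1* was lower, at 0.881 (0.834 to 0.931), and *Psmd2* near 1, at 0.993. Among the chaperones, *Psmd9* was at 30.8 and 35.4 CPM, the fifth highest ratio of the members at 1.15, and its interval, like those of *Psmd5* and *Psmd10*, spanned 1. *Psmb11* was at 0.665 (0.518 to 0.849), with the uncertainty of its UMIs given above.

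Counted with a fold of 1.2 and an interval on the same side of 1, 3 of 36 members (8.33%) were higher in the knockout library, against 23.0% of the 9835 genes counted, and 6 (16.7%) were lower, against 23.8%. Both shares were below the background, and whether they differ from it was not tested. The 3 higher were *Psmd3*, *Psmd8* and *Psmd13*, and with the UMIs of its copies added *Psmb5* also passed, at 1.22 (1.15 to 1.29). The 6 lower were *Psma3*, *Psma6*, *Psmb11*, *Psmc6*, *Psmd6* and *Psmd12*. Of these, *Psmb11* rests on UMIs that could not be assigned to it with certainty. Under median of ratios scaling the split was 2 of 36 higher (background 18.8%) and 9 of 36 lower (background 27.3%), both again below the background. At a fold of 1.5, 0 were higher (background 6.50%) and 2, *Psmb11* and *Psmd12*, were lower (background 8.50%). The quartiles of the members were ratios of 0.869 and 1.05, and those of all genes 0.833 and 1.2001, around medians of 0.984 and 1.01.

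**Figure D2:**
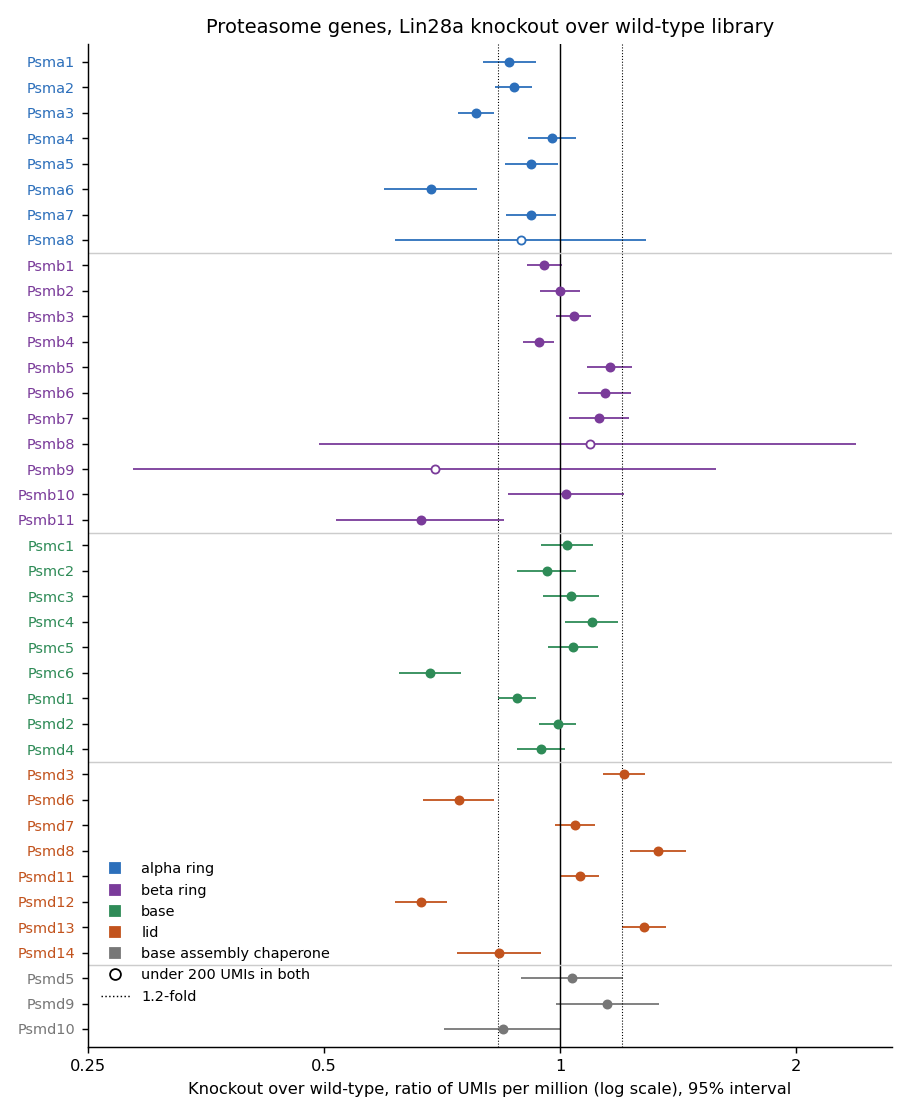
Knockout over wild-type ratio of CPM for each proteasome gene (log axis), with the exact 95% interval for counting error, coloured by ring and particle. The dotted lines mark 1.2-fold and open circles mark the 3 genes under 200 UMIs. The alpha ring lies left of 1, the catalytic *Psmb5*, *Psmb6* and *Psmb7* right of it, and the lid spans from *Psmd12* at 0.664 to *Psmd8* at 1.33.

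The 9 genes past 1.2-fold were chosen for their ratio over all cells, and bins of cells are subsets of those cells, so their ratios within bins are values and not independent support. In cells of 5000 to 10000 UMIs, in cells with 5 to 10% RP UMIs and in cells under 1% mitochondrial UMIs, all 9 had an interval on the same side of 1 as over all cells. In the bin of 10 to 15% RP UMIs 6 did, *Psmb11*, *Psmc6* and *Psmd6* being the exceptions. In cells with 15% or more RP UMIs 7 did, without *Psmb11* and *Psmd3*, and in cells with 1 to 2% mitochondrial UMIs 8 did, without *Psmd6*.

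Base composition moved with the ratios. Over the 36 members the knockout over wild-type ratio had a Spearman correlation of 0.483 with the GC content of the longest transcript, and over 9831 genes one of 0.467. These are values across genes of the same 2 libraries, which are not independent replicates. The median ratio of all genes rose from 0.804 in the lowest decile of GC (30.6 to 40.8%) to 1.205 in the highest (57.1 to 71.3%). *Psmc6*, at 37.0% GC, had a ratio of 0.850 relative to the genes of its own decile, and *Psma3*, at 40.8%, one of 0.971. *Psmd13* (53.4% GC) was at 1.15 and *Psmd3* at 1.04 on this scale, and *Psmb5* was turned to 0.993. *Psmd12*, at 47.9%, stayed at 0.666, *Psmd8*, at 52.6%, at 1.23, *Psma6* at 0.726 and *Psmd6* at 0.789.

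Relative to genes of like GC, 3 members were higher past 1.2-fold and 5 lower, with a background of 19.2% of 9831 genes in each direction. *Psmb7* at 1.39 (1.28 to 1.52) and *Psmd11* at 1.32 (1.25 to 1.39) stood with *Psmd8* among the higher. The longest annotated transcripts of *Psmb7* and *Psmd11* have a GC content of 40.8% and 39.9%. Whether the longest transcript of a gene is the form counted here was not tested. The 5 lower were *Psma6*, *Psma7*, *Psmb11*, *Psmd6* and *Psmd12*. The part of base composition in the differences between the libraries was not tested.

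**Figure D3:**
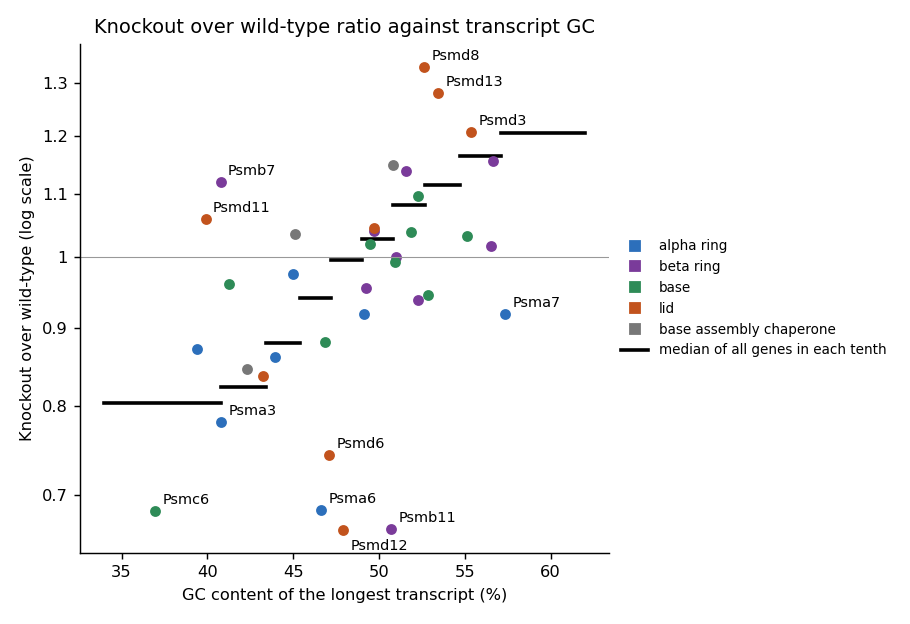
Knockout over wild-type ratio (log axis) of each of the 36 counted members against the GC content of its longest transcript in percent, coloured by ring and particle, with black bars at the median of all genes in each decile of GC content, the outer 2 drawn over part of their range. The bars rise from 0.804 to 1.205 and the members rise with them, while *Psmd12*, *Psma6* and *Psmd6* lie below the bars and *Psmd8*, *Psmb7* and *Psmd11* above.

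The immune subunits were asked against fibroblast content, since feeder fibroblasts share the culture. All 17 fibroblast markers were higher in collagen-high than in other cells in both libraries, summing to 41902 against 1064 CPM in the wild-type library and 38960 against 1025 CPM in the knockout library. The 3 collagen genes that cut the class are on this list and gave 19149.8 and 18537 CPM of the sums in collagen-high cells, a part that the cut itself fixed. Collagen-high cells made up 2.21% of wild-type cells with 3.496% of the UMIs, and 1.29% of knockout cells with 1.16% of the UMIs. Their median UMI count was 9273 against 6107 in other wild-type cells, and 2295 against 5072 in the knockout library. Markers of macrophages and blood summed to 34.4 against 21.2 CPM and 36.8 against 32.9 CPM in the 2 libraries. *Lyz2* and *Tyrobp* were at 0 in the collagen-high and the other cells of both. *Csf1r* held 12 of the 14 wild-type and all 4 knockout UMIs of this list in collagen-high cells. It was at 29.5 against 15.2 CPM and 36.8 against 23.4 CPM, with intervals of the ratio that spanned 1. Endothelial markers summed to 7.37 against 4.81 CPM and 18.4 against 5.63 CPM. The class is cut from a share of UMIs, and 13 wild-type and 7 knockout cells lay near the cut, between 0.25% and 1% collagen UMIs.

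*Psmb8* was the proteasome gene with the highest ratio between these cells. In the wild-type library 12 of its 16 UMIs lay in the 41 collagen-high cells, at 29.5 CPM against 0.356 CPM in the other 1815 cells, a ratio of 82.8 (25.1 to 352). In the knockout library 5 of its 14 UMIs lay in the 21 collagen-high cells, at 46.0 against 0.975 CPM, a ratio of 47.2 (12.4 to 157). A *Psmb8* UMI was found in 7 of 41 and 4 of 1815 wild-type cells, and in 5 of 21 and 9 of 1601 knockout cells. Thinned to 500 UMIs a cell, these shares were 1.01% against 0.0162% and 2.49% against 0.0533%. The UMIs outside the collagen-high cells were few enough that free RNA in the droplets cannot be told apart from a low level in those cells. Per 100 UMIs of the 3 collagen genes there were 0.154 *Psmb8* UMIs in collagen-high and 1.18 in other wild-type cells, and 0.248 and 3.15 in the knockout library.

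The other immune subunits followed in the same order in both libraries by point estimate, with intervals that overlap between *Psmb9* and *Psmb10* in both and between *Psmb8* and *Psmb9* in the knockout library. *Psmb9* was at 7.37 CPM in collagen-high and 1.33 CPM in other wild-type cells (3 and 15 UMIs), a ratio of 5.52 (1.02 to 19.5), and at 18.4 against 0.867 CPM in the knockout library (2 and 8 UMIs), a ratio of 21.2 (2.20 to 106). Both *Psmb9* UMIs of the knockout collagen-high cells lay in 1 cell, so that ratio rests on it. *Psmb10* was at 63.9 against 25.3 CPM in the wild-type library, a ratio of 2.53 (1.62 to 3.78), and at 46.0 against 26.9 CPM in the knockout library, giving a ratio of 1.71 (0.551 to 4.05) on 5 UMIs. Of the *Psmb10* UMIs, 284 of 310 in the wild-type and 248 of 253 in the knockout library lay outside the collagen-high cells. Summed, the immune subunits were at 100.8 against 27.0 CPM in the wild-type library (3.73, 2.63 to 5.19) and 110.4 against 28.7 CPM in the knockout library (3.85, 1.96 to 6.83). Over all cells they did not differ between the libraries beyond counting error, at 29.6 and 29.7 CPM (1.003, 0.853 to 1.18), or 1.06 without the collagen-high cells. Within bins of cells the ratio lay on either side of 1. It was 1.34 (1.06 to 1.67) in cells of 5000 to 10000 UMIs and 0.627 (0.469 to 0.839) in deeper cells, 0.719 (0.534 to 0.959) in cells with 5 to 10% RP UMIs and 1.35 (0.9999 to 1.84) in cells with 15% or more, and 1.295 (1.02 to 1.65) in cells under 1% mitochondrial UMIs. Collagen-high cells were 18 of 1042 wild-type and 5 of 507 knockout cells of 5000 to 10000 UMIs, 18 of 192 and 3 of 314 deeper cells, 24 of 932 and 3 of 439 cells with 5 to 10% RP UMIs, 1 of 226 and 5 of 355 with 15% or more, and 12 of 614 and 7 of 547 cells under 1% mitochondrial UMIs. Their part in these ratios was not tested.

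The catalytic subunits that they replace were lower in the same cells. Summed, *Psmb5*, *Psmb6* and *Psmb7* in collagen-high cells were 0.455 times (0.354 to 0.578) their level in other wild-type cells and 0.416 times (0.2504 to 0.651) in the knockout library. For *Psmb5* the ratios were 0.429 and 0.301, for *Psmb6* 0.379 and 0.563, and for *Psmb7* 0.594 and 0.435. In the knockout library the intervals of *Psmb6* (0.243 to 1.11) and *Psmb7* (0.141 to 1.02) spanned 1, on 8 and 5 UMIs in collagen-high cells. Of the UMIs on immune and catalytic subunits together, the immune share was 37.3% (28.2 to 47.0) in collagen-high and 6.76% (6.04 to 7.53) in other wild-type cells. In the knockout library it was 38.7% (21.9 to 57.8) and 6.399% (5.67 to 7.19). By pair in the wild-type library, there were 12 *Psmb8* to 28 *Psmb5* UMIs in collagen-high and 4 to 1803 in other cells, and 26 *Psmb10* to 23 *Psmb7* UMIs against 284 to 1069.

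**Figure D4:**
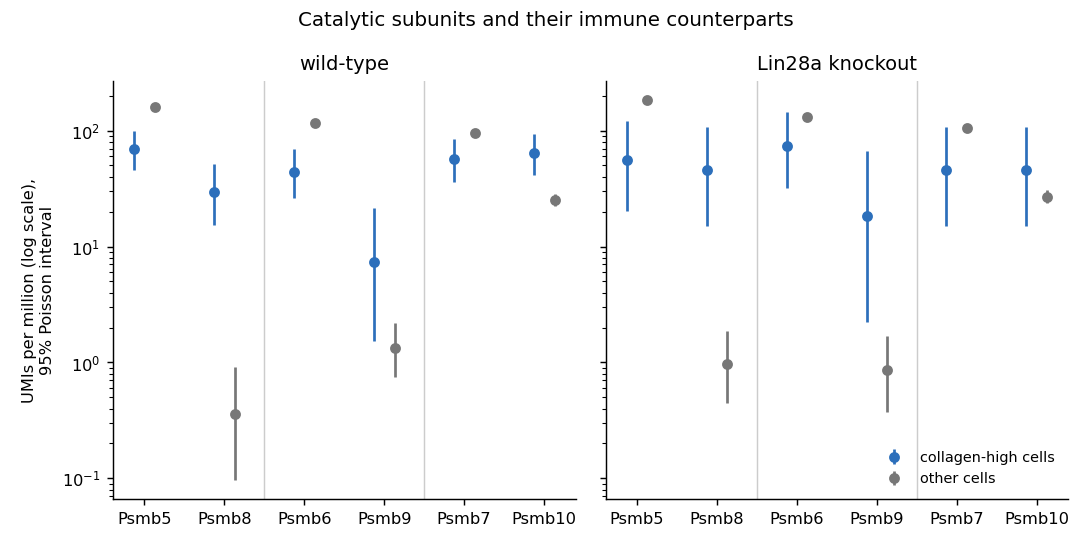
Level in CPM (log axis) of each catalytic subunit beside its immune counterpart, in collagen-high (blue) and other (grey) cells of the wild-type and knockout libraries, with 95% Poisson intervals. In both libraries the blue point lies under the grey one for *Psmb5*, *Psmb6* and *Psmb7* and above it for *Psmb8*, *Psmb9* and *Psmb10*.

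The proteasome as a whole was lower in collagen-high cells, at 3730 against 5515 CPM in the wild-type library (0.676, 0.642 to 0.712) and 3671 against 5323 CPM in the knockout library (0.690, 0.623 to 0.761). In the same cells mitochondrial genes were at 12923 against 13655 CPM in the wild-type library and at 24351 against 18471 CPM in the knockout library, where 9 of the 21 collagen-high cells had 5 to 20% mitochondrial UMIs and 11 had under 5% RP UMIs. Their part in the result was not tested. Past 2-fold, 8 of 36 members (22.2%) were lower in the wild-type library against 24.8% of all genes counted, and 6 (16.7%) in the knockout library against 9.80%. Higher past 2-fold were 2 members, *Psmb10* and *Psmb11*, in the wild-type library (background 14.7%) and 0 in the knockout library (background 9.62%). The medians of the members were 0.691 and 0.684, and those of all genes 0.788 and 0.765. The shares past 2-fold also need an interval on the same side of 1, so they depend on UMI counts, for which members and all genes were not matched. *Psmd8*, below 2-fold, was on the other side of 1, at 1.55 (1.17 to 2.01) in the wild-type library and 1.46 (0.886 to 2.26) in the knockout library. *Psmb11* was at 4.88 (3.17 to 7.28) in the wild-type library and 2.55 (0.517 to 7.66) in the knockout library. *Psma8* had 0 UMIs in the 41 wild-type collagen-high cells, which allows up to 7.37 CPM, above its level of 6.36 CPM over all cells of that library.

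Proteasome levels moved with RP content in both libraries. From cells with 5 to 10% RP UMIs to cells with 15% or more, the summed proteasome level went from 5093 up to 6493 CPM for the wild-type library and from 4801 to 6138 CPM in the knockout library, giving a ratio of 1.28 (1.25 to 1.30) and 1.28 (1.25 to 1.31). With RP and mitochondrial genes left out of the denominator the levels were 5681 and 7890 CPM, and 5424 and 7469 CPM. The median mitochondrial share was 1.69% and 0.180% in these wild-type bins, 2.50% and 0.266% in the knockout bins, and the median UMI count 6397 and 7331, and 7720 and 5852. The ratio of core to regulatory UMIs was 0.952 and 1.21 in the wild-type library and 0.896 and 1.12 in the knockout library.

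Higher past 1.2-fold in the cells richest in RP UMIs were 21 of 36 members (58.3%) in the wild-type library, against 28.9% of all genes counted, and 18 in the knockout library, against 28.2%. Lower were 8 (22.2%) against 46.0%, and 9 against 47.8%. The medians were 1.36 and 1.25 for the members and 0.777 and 0.744 for all genes. The immune subunits summed to 27.7 and 40.8 CPM in these wild-type bins and to 19.9 and 55.2 CPM in the knockout bins. By particle the medians were 1.54 and 1.56 for the core, and 1.22 and 1.18 for the regulatory particle.

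The order of the genes was similar but not the same in the libraries. *Psmc6* was at 154 CPM in the middle bin and 29.9 CPM in the highest in the wild-type library, a ratio of 0.194, and at 121 and 19.02 CPM in the knockout library, giving a ratio of 0.158. *Psma3* had ratios of 0.412 and 0.338, *Psma1* 0.421 and 0.363, *Psmd6* 0.513 and 0.378 and *Psmd14* 0.532 and 0.419. High in both libraries were *Psmb6* (2.52 and 2.42), *Psmb3* (2.25 and 2.27), *Psmb5* (2.06 and 2.40), *Psmc3* (2.03 and 2.07) and *Psma7* (2.00 and 1.99). In the knockout library the immune subunit gene *Psmb10*, at 2.74 (1.98 to 3.81), and the ubiquitin receptor gene *Psmd4*, at 2.47 (2.15 to 2.84), were highest, against 1.62 and 1.81 in the wild-type library. The ATPase ring thus contained *Psmc3* and *Psmc6*, on either side of 1. The ratios of the 2 libraries had a Spearman correlation of 0.957 over the 36 members and 0.936 over all genes counted. With the GC of the longest annotated transcript the members had 0.582 and 0.651 and all genes 0.655 and 0.657. With the length of that transcript the members had -0.251 and -0.216 and all genes -0.460 and -0.446. These are values across genes that share the cells and their depth.

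**Figure D5:**
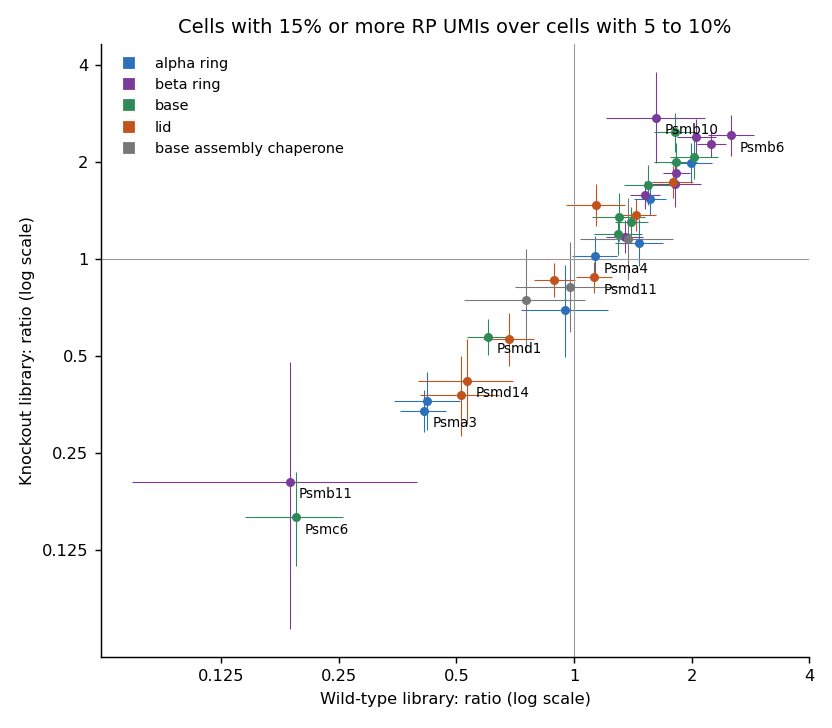
For each of the 36 counted members, the level in cells with 15% or more RP UMIs over that in cells with 5 to 10%, in the wild-type (horizontal, log axis) and the knockout library (vertical, log axis), with 95% intervals for counting error, coloured by ring and particle. Most points lie near the diagonal, with *Psmc6* at 0.194 and 0.158 and *Psmb6* at 2.52 and 2.42, whereas *Psmb10* lies at 1.62 and 2.74 and *Psmd11* at 1.13 and 0.876.

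The cells under 5% RP UMIs, 91 of the wild-type library and 233 of the knockout library, were shallow, with median UMI counts of 830 and 1214 and median mitochondrial shares of 4.32% and 5.98%. They held 2986 and 3765 CPM of proteasome UMIs, and 7 of the 91 and 11 of the 233 were collagen-high. Lower past 2-fold than in all other cells were 17 of 36 members (47.2%) in each library, against 14.0% of all genes counted in the wild-type library and 22.1% in the knockout library. Such a call needs an interval below 1, which a gene with few UMIs in these cells can lack at a low ratio. *Psmd10*, at 0.349 on 1 wild-type UMI, was not called, as its interval (0.00881 to 1.96) spanned 1. Members and all genes were not matched for UMI counts, so the 2 shares are not compared on equal terms. Ratios were under 1 for 31 and 29 of the 36, and for 5844 and 5418 of all 9835 genes counted, with medians of 0.428 and 0.563 against 0.760 and 0.873 for all genes. *Psmd8* was among the lowest, at 0.213 (0.0257 to 0.771) on 2 UMIs and 0.234 (0.112 to 0.432) on 10. The lid genes *Psmd11* and *Psmd7* were on the other side of 1. *Psmd11* was at 1.41 (0.964 to 2.00) and 1.95 (1.64 to 2.30), and *Psmd7* at 1.33 (0.881 to 1.92) and 1.44 (1.17 to 1.75). Higher past 2-fold were *Psmb11* in the wild-type library (background 12.8%), at 7.13 (3.498 to 13.1), and *Psmb11*, at 6.22 (3.57 to 10.3), and *Psmd9* in the knockout library (background 22.0%).

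Across single cells of at least 5000 UMIs, 1234 of the wild-type library and 821 of the knockout library, the proteasome took a median of 0.547% and 0.528% of UMIs, with 5th to 95th percentiles of 0.342 to 0.765% and 0.345 to 0.757%. The variance of single members over that expected from depth had a median of 1.13 and 1.21. For all genes counted, which were not matched for mean count, the median was 1.10 and 1.11. For the proteasome sum the value was 2.33 and 2.78, against 83.0 and 94.8 for the RP genes and 37.2 and 69.1 for the mitochondrial genes. This measure grows with the mean count, and both of these sets take more UMIs than the proteasome. The values therefore do not rank the sets by relative variation. The core particle varied more (2.34 and 2.77) than the regulatory particle (1.34 and 1.52). The shares of the particles had a Pearson correlation of 0.244 and 0.298 over these cells. The proteasome share had a Spearman correlation of 0.415 and 0.431 with the RP share and -0.361 and -0.471 with the mitochondrial share, all being shares of the same UMI total of the cell.

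Among 42 genes of the wider pathway, fixed as lists by function, 36 had enough UMIs to be counted, of which 8 were higher and 8 lower past 1.2-fold in the knockout library, with the backgrounds of 23.0% and 23.8% given above. None of the 5 chaperones of core particle assembly (*Psmg1* to *Psmg4* and *Pomp*) passed. Of 4 further regulatory particle proteins, the small lid subunit *Sem1* was at 263 CPM in the wild-type library and 360.2 CPM in the knockout library (1.37), the ubiquitin receptor *Adrm1* at 1.25 and the deubiquitinase *Usp14* at 0.728. Of 5 genes for activators and the inhibitor, the nuclear activator *Psme4* was lower at 0.689, whereas *Psme2*, an interferon-induced activator subunit, was at 1.19 and did not pass. Among the ubiquitin and E1 genes, the E1 enzyme *Uba1* was at 217 and 277 CPM (1.28). Among the shuttle and p97 genes, the ubiquilin *Ubqln4* (1.52) was higher, and the ubiquilin *Ubqln2* (0.648) and the shuttle *Rad23b* (0.736) were lower.

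Transcripts of the factors that drive proteasome genes were lower in the knockout library. These libraries hold no measure of the proteins or their activity. *Nfe2l2* was at 154 CPM in the wild-type library and 95.2 CPM in the knockout library (0.618), and *Nfe2l1*, which restores proteasome synthesis after inhibition, at 122 and 97.5 CPM (0.801). *Ngly1*, which processes Nfe2l1, was at 0.639 on 80 and 41 UMIs, too few to be counted. Of the 5 members with TGACNNNGC in the promoter, *Psmb5*, *Psmb6* and *Psmd9* had ratios of 1.16, 1.14 and 1.15, the last with an interval that spanned 1. *Psmc6* and *Psmd12* had ratios of 0.683 and 0.664. Relative to genes of like GC the 5 were at 0.993, 1.05, 1.06, 0.850 and 0.666, in the same order. A part of these factors in the ratios was not tested.

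Of 10 antigen presentation genes, 5 were counted. *B2m*, the light chain of MHC class I, was at 56.7 CPM in the wild-type library and 23.4 CPM in the knockout library (0.413), and the heavy chain *H2-K1* at 35.4 and 22.9 CPM (0.647). Without the collagen-high cells these ratios were 1.04 and 1.62, and that of *H2-D1* was 1.84. Of all *B2m* UMIs, 78.8% lay in collagen-high cells of the wild-type library, and 45.2% in those of the knockout library. *B2m* was 102.5-fold and 70.1-fold higher in collagen-high than in other cells, *H2-K1* 65.6-fold and 27.3-fold, and the peptide transporter *Tap1* 52.6-fold and 35.6-fold. The ratios of 82.8 and 47.2 of *Psmb8* lay among those of these genes in both libraries, and those of *Psmb10*, 2.53 and 1.71, below them all. The peptide-loading factor *Tapbp* was higher in the knockout library (1.70), also without the collagen-high cells (1.76). *Irf1*, which induces immune subunits, was at 8.42 and 10.1 CPM, and *Nlrc5*, the activator of class I genes, had 2 and 5 UMIs.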

How the data were processed

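Single-cell transcripts of mouse ES cells were measured by inDrop in 2 libraries, 1 per group. The deposited values were UMI counts per gene and barcode, and the submitters' processing notes name Seurat 2.3.4 and the build mm10. Per the study's methods, the authors made the count matrices with a published inDrop pipeline; the aligner and annotation within it were not given for these libraries in the sources used here. The authors' barcode columns were serial numbers, so barcodes shared between the libraries could not be counted, and 0 per-sample columns were left unused. Gene identifiers were matched to GENCODE symbols without version (54079 genes, 52480 also with version; 36 of the 39 members with version).

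Cells had at least 500 UMIs and at most 20% mitochondrial UMIs. UMIs were summed over cells and scaled to the library total (CPM), with exact Poisson and binomial 95% intervals. RP genes were 87 ribosomal protein genes. Ratios were counted past 1.2-fold between libraries and 2-fold between cell groups where the interval lay on the same side of 1, among genes of at least 200 UMIs over both libraries, and a count of 0 was taken to allow 3 UMIs. Doublets were kept, with their removal by Scrublet as an alternative. Calculations used Python 3.11.15, with scanpy 1.11.5 and anndata 0.12.19 for Scrublet, scipy 1.17.1 for intervals, pandas 2.3.3, numpy 2.4.6 and matplotlib 3.10.9. Copies of the last 500 bases of the longest transcript were searched with blastn 2.17.0. The ratio intervals and calls were tested on simulated pooled counts, with changes larger than 1.2-fold. The other steps were not tested in this way.

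Groups came from the labels. Genes were named by rule, as the 2 highest and 2 lowest in each role, the 5 highest and 5 lowest ratios, the catalytic, immune, thymic and testis subunits, and pathway genes past 1.2-fold or with a role in control of the immune subunits. Other members were named after their values were seen. Members and lists were chosen with earlier results of these data known. A planned comparison of protein sequences was not made. Some pathway genes within the rule are not reported here.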

Additional observations from a re-analysis of the deposited data

Results flagged for a closer look

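Among the 36 members, *Psmd11*, a lid subunit, had opposite directions in the 2 libraries from cells with 5 to 10% of UMIs on RP genes to cells with 15% or more. Its ratio was 1.13 (1.01 to 1.25) in the wild-type library and 0.876 (0.782 to 0.981) in the knockout library, with both intervals on their side of 1. The difference between the libraries was not tested.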

How the results depend on the processing

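No paired analysis was possible because the labels give the libraries no shared replicate number, and with 1 library in each group none could be left out. Of 123 summary values under alternative settings, 115 stayed within their interval or within 1.5 times their count, 8 moved beyond it and 0 reversed. Under median of ratios scaling the knockout over wild-type ratio was 0.940 for all members, 0.917 for the core and 0.963 for the regulatory particle, by construction since that setting multiplies each ratio by 1 factor. With mitochondrial and RP genes out of the denominator it was 0.989 for all members. At a fold of 1.5, 2 members were lower and 0 higher. With no minimum on UMIs per gene, 4 members in the wild-type library and 2 in the knockout library were higher past 2-fold in collagen-high cells, by construction since more genes were counted. Of 160 values for rings and single members, 152 stayed, 7 moved and 1 reversed. Relative to genes of like GC, an alternative chosen after seeing the data, *Psmb5* went to 0.993, and the cause was not tested. A further alternative chosen after seeing the data, with UMIs of near-identical pseudogenes added except for *Psmb11*, moved none of these values beyond its limit. *Psmb5* then passed 1.2-fold, a change in the count of members that stays within 1.5 times. The protein-coding copies of *Psmc3* and *Psmd1* were not added in it. The immune subunit ratio between collagen-high and other cells ranged from 3.63 to 4.38 in the wild-type library and 3.17 to 3.86 in the knockout library over the alternatives run. Depth limits *Psmb8* and *Psmb9* most, with 10 to 18 UMIs in each library.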
